A study of Homo sapiens with 3 samples.

Results

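The ERBB receptors and the proteins that couple them to RAS were read from the arrays as 10 genes, the receptors EGFR, ERBB2, ERBB3 and ERBB4, the adaptors and docking proteins GRB2, SHC1 and GAB1, the RAS activators SOS1 and SOS2, and the ubiquitin ligase CBL. All probes that the array files name for these genes were taken, each on its own, which gave 18 of 58201 probes for 10 of 43317 gene names. Of these, 16 were well above background on at least 1 array and 14 on all 3. ERBB3 probe 3 and ERBB4 probe 2 were not well above background on any array and are given below without a difference.

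Gene expression was measured in HCT116 cells, a human colorectal cancer cell line, after transfection with small interfering RNA (siRNA) against SMARCA4 and in negative control (NC) cells with 1-colour Agilent arrays (SurePrint G3, human, version 3). SMARCA4 is an ATPase of the SWI/SNF chromatin remodelling complexes, and the study asked which genes change when it is depleted. The 3 conditions, SMARCA4-KD1, SMARCA4-KD2 and NC, have 1 array each, so no difference from NC has a replicate check, and the NC array is shared by both comparisons. All 3 arrays came from the same cell line in the same medium, and per the study's text NC cells received a scrambled control, whose sequence is not in the labels. The sample titles and the siRNA protocol name SMARCA4, while the treatment field names PRMT1 and gives the knockdown number.

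The probe for SMARCA4, the targeted gene, had a signal of 14026 in NC against 3960.2 in SMARCA4-KD1 and 4129 in the SMARCA4-KD2 array. After scaling, 26.6% and 28.8% of the NC level was left in SMARCA4-KD1 and SMARCA4-KD2. PRMT1 stood at 120% and 129% of NC, so of the genes named by the labels it was SMARCA4 whose signal was lower. Of the 7 epithelial markers looked up, EPCAM, CDH1, KRT8, KRT18 and KRT19 were well above background on all arrays, and VIL1 and LGALS4 were on none. Their summed signal was between 368449 in NC and 396698 in SMARCA4-KD1. Of the 8 markers of fibroblasts and endothelial cells, COL1A1, CDH5 and VWF were well above background and the other 5 were not, and neither list's summed signal exceeded 488 on any array. Slide 1 held both knockdowns and slide 2 held NC, so that slide and group cannot be told apart. Between 45.7% and 47.3% of the probes were well above background on each array.

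ERBB receptors are receptor tyrosine kinases at the cell surface. When a ligand of the EGF or neuregulin family binds, receptors pair and phosphorylate each other on tyrosines, which GRB2 and SHC1 recognise, and GRB2 brings SOS1 or SOS2 to the membrane, where these exchange the nucleotide of RAS. GAB1 links the same complex to phosphoinositide 3-kinase, and CBL marks activated receptors for removal. In the gut epithelium the pathway drives renewal, and it is a drug target in colorectal cancer.

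The deposited files hold the sequence of each probe, and 4 probes that lie in coding sequence are shown here so that the transcripts behind the values can be recognised. They are written as the files give them, on the strand of the mRNA. In SHC1 probe 2 the capitals mark the codons of a tyrosine motif that GRB2 binds once it is phosphorylated.
SHC1 probe 2: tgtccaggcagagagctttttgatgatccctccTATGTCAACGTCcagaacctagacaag
EGFR probe 3: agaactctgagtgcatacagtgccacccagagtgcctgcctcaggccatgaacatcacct
SOS1 probe 1: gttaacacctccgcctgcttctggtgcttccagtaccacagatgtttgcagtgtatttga
SOS1 probe 2: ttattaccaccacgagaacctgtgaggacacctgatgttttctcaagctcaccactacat
No stretch of a member's 60-base probe longer than 15 bases was found in a probe of another gene name on the array. The positions given below are those in the files (hg19), and no annotation of exons and untranslated regions on that build was used.

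Differences are log2 of the processed signal relative to the array's 75th percentile, a knockdown minus NC, and most member probes are given with the error that the extraction software assigns to the spots, about 0.20 on the log2 scale for a bright probe. This error describes reading a spot, not growing and transfecting the cells again. The only spread between arrays of knockdown cells that the data hold is the one between SMARCA4-KD1 and SMARCA4-KD2, which differ in siRNA as well. Among all 29334 probes kept, SMARCA4-KD1 and SMARCA4-KD2 differed with an SD of 0.68 below a signal of 50, of 0.34 from 50 to 200, of 0.25 from 200 to 1000 and of 0.16 above 1000. Where 2 values are given for the knockdowns, the first is that of SMARCA4-KD1. The median difference over all probes kept was 0.00 and 0.02, and over the 16 member probes it was -0.01 and -0.04.

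**Figure D1:**
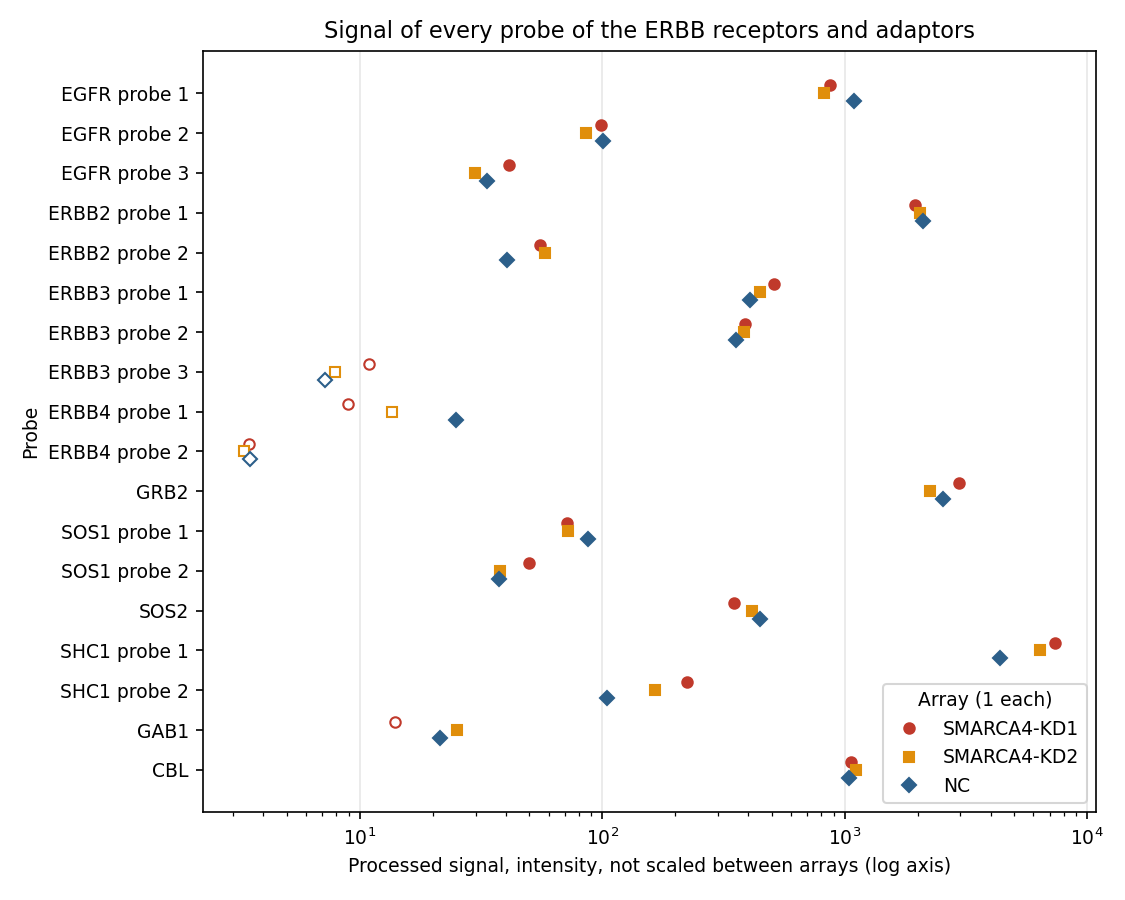
Processed signal of all 18 probes on each of the 3 arrays, on a log axis, with open symbols where the probe was not well above background. The values span from 3.33 for ERBB4 probe 2 to 7393 for SHC1 probe 1, and SHC1 is the gene for which NC lies furthest below both knockdowns on each of its probes.

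EGFR, the receptor of EGF, amphiregulin and related ligands, had a lower signal in both knockdown arrays at the probe for the end of its full-length transcript, by less than 1.5-fold. EGFR probe 1 (chr7:55274841-55274900) had a signal of 1087 in NC against 865 in SMARCA4-KD1 and 817 in the SMARCA4-KD2 array. Both knockdown values lay below NC and close to each other. After scaling this was 75.1% and 73.5% of NC, log2 differences of -0.41 and -0.44, each with a software error of 0.20. The knockdowns were 0.03 apart on the log2 scale. Fitted with limma over all probes, both knockdowns against NC, the adjusted p was 0.109, and it was 0.0327 when the fit was restricted to probes well above background on all arrays.

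EGFR also makes short transcripts that code for receptors without the kinase domain, and the files list 2 probes under these. EGFR probe 2 (chr7:55224558-55224617) holds the letters of a polyadenylation signal. Its signal was 100.5 in NC against 98.8 in SMARCA4-KD1 and 85.6 in the SMARCA4-KD2 array, log2 differences of -0.11 and -0.26 with errors of 0.22 and 0.22. The authors' series-level table lists other values for this probe, 11.3 for NC and 7.12 and 6.36 for the knockdowns. All of these lie below the lowest signal well above background, 17.7 on NC and 16.9 and 16.2 on the knockdown arrays. Taken as listed they would give -0.75 and -0.86, which are not measured differences. Of 57871 probes with 1 spot this probe was the only one to differ by more than 0.1%. EGFR probe 3 (chr7:55231446-55231505), listed under other short transcripts but lying in coding sequence of the extracellular domain that the full-length transcript shares, had a signal of 33.4 in NC, with 41.3 and 29.9 in the knockdowns. Here NC lay between the knockdowns, with log2 differences of 0.22 and -0.19 and errors of 0.28 and 0.30. The mean changes of the 3 EGFR probes thus spanned 0.45 on the log2 scale, against a median of 0.27 over the 5173 genes with at least 2 probes kept. The paper lists EGFR as more than 1.5-fold lower in both SMARCA4 knockdowns, without naming a probe. From separate assays it also reports less EGFR mRNA, by quantitative RT-PCR, and less EGFR protein after SMARCA4 knockdown. In the scanner files no EGFR probe reached 1.5-fold, while the series-level values of EGFR probe 2, at -0.75 and -0.86, lie past it. Whether the paper's entry came from those listed values was not tested.

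ERBB2, the receptor without a known ligand that pairs with the others, differed by less than the software error at its probe with 10 spots (chr17:37884829-37884888). On SMARCA4-KD1 the 10 spots of ERBB2 probe 1 ran from 1875 over a median of 1964 to 2017. On SMARCA4-KD2 they ran from 2016 over 2043 to 2107. On NC they ran from 1999.8 over 2094 to 2218. These ranges overlapped between all arrays. After scaling, the spots of SMARCA4-KD2 and NC still overlapped and those of SMARCA4-KD1 lay below both. The log2 differences were -0.18 and -0.06, within the software error of 0.20. ERBB2 probe 2 (chr17:37851136-37851195), upstream in the gene and listed under an Ensembl transcript, had 40.4 in NC against 55.4 in SMARCA4-KD1 and 58.0 in the SMARCA4-KD2 array. Its log2 differences were 0.37 and 0.49 with errors of 0.26 and 0.25, and they were 0.09 and 0.14 after normexp background correction. Its limma adjusted p was 0.213. The mean changes of the ERBB2 probes lay 0.55 apart.

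ERBB3, which has little kinase activity of its own and signals through its partners, differed from NC by less than 1.5-fold at both probes that could be read. ERBB3 probe 2 (chr12:56496160-56496219) had a signal of 355 in NC against 388 in SMARCA4-KD1 and 383 in the SMARCA4-KD2 array, log2 differences of 0.04 and 0.08. ERBB3 probe 1 (chr12:56479217-56479276), listed for a short transcript, had 405 in NC and 509 and 448 in the knockdowns, log2 differences of 0.25 and 0.11 with errors of 0.20 and 0.20. ERBB3 probe 3 had 7.15 in NC and 10.9 and 7.90 in the knockdowns, none of them well above background.

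ERBB4, the neuregulin receptor, was near the limit of detection. ERBB4 probe 1 (chr2:212240515-212240574) had a signal of 25.0 in NC against 8.93 in SMARCA4-KD1 and 13.6 in the SMARCA4-KD2 array, and only the NC value was well above background. Against the lowest level well above background on each knockdown array, NC was 1.57-fold higher than SMARCA4-KD1 and 1.58-fold higher than SMARCA4-KD2, log2 limits of -0.65 and -0.66. The software errors are 0.65 and 0.47, so these limits are not firm bounds. After normexp background correction the differences were -0.28 and -0.18. In the fit both knockdown values of this probe are such limits, 0.00 apart, so its limma adjusted p of 0.125 rests on no measured spread. ERBB4 probe 2 had 3.54 in NC and 3.48 and 3.33 in the knockdowns, none of them well above background.

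SHC1, the adaptor that binds phosphorylated receptors and is itself phosphorylated to dock GRB2, was the member with the largest differences among probes well above background on all arrays, and both of its probes were higher in both knockdown arrays. SHC1 probe 1 (chr1:154935081-154935140) is also spotted 10 times, of which 8 to 9 spots per array carried no outlier flag. On SMARCA4-KD1 these ran from 7131 over a median of 7416 to 7505. On SMARCA4-KD2 they ran from 6262 over 6384 to 6471. On NC they ran from 4329 over 4362 to 4484. The spots of the 3 arrays did not overlap, and within an array their SD was 0.02 on the log2 scale. The log2 differences were 0.67 and 0.51, 159% and 143% of NC, with a software error of 0.20 each.

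SHC1 probe 2 (chr1:154938501-154938644), the probe over the GRB2 docking codons shown above, covers 144 bases of the genome with its 60 bases and so crosses an exon junction. Its signal was 104 in NC against 223 in SMARCA4-KD1 and 164 in the SMARCA4-KD2 array, so that NC was lowest and SMARCA4-KD1 highest, as at probe 1. The log2 differences were 1.01 and 0.62 with errors of 0.21 and 0.21, and 0.68 and 0.37 after normexp background correction. With the percentile taken over probes well above background, the difference in SMARCA4-KD2 was 0.58, just under 1.5-fold. The limma adjusted p was 0.106 for probe 1 and 0.154 for probe 2. Among probes well above background on all arrays it was 0.0064 and 0.0178.

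GRB2, the adaptor that carries SOS1 and SOS2 to the receptors, was measured by 1 bright probe (chr17:73314862-73314921). Its signal was 2553 in NC against 2970 in SMARCA4-KD1 and 2239 in the SMARCA4-KD2 array, so that NC lay between the knockdowns. The log2 differences were 0.13 and -0.22, and the knockdowns were 0.36 apart, against an SD of 0.16 between them among probes above a signal of 1000.

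SOS1 and SOS2 exchange GDP for GTP on RAS. SOS2 (chr14:50584323-50584382) had a signal of 445 in NC against 350 in SMARCA4-KD1 and 413 in the SMARCA4-KD2 array, log2 differences of -0.43 and -0.14 with an error of 0.20 each. SOS1 probe 1 (chr2:39222293-39222352) had 87.5 in NC and 71.7 and 72.2 in the knockdowns, log2 differences of -0.37 and -0.31 with errors of 0.22 and 0.22. SOS1 probe 2 (chr2:39213271-39213330) had 37.4 in NC and 49.8 and 37.8 in the knockdowns, log2 differences of 0.33 and -0.02. The SOS1 probes thus lay on different sides of NC in SMARCA4-KD1, and their mean changes differed by 0.50. None of these probes was 1.5-fold from NC.

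CBL, the ubiquitin ligase that ends receptor signaling, stayed within 5% of NC. Its probe (chr11:119178466-119178525) had a signal of 1044 in NC against 1063 in SMARCA4-KD1 and 1117 in the SMARCA4-KD2 array, log2 differences of -0.06 and 0.06. GAB1, the docking protein (chr4:144390452-144390511), was dim, with 21.4 in NC, 25.1 in SMARCA4-KD2 and 14.0 in SMARCA4-KD1, the last not well above background. Against the lowest level well above background on SMARCA4-KD1, NC was 1.34-fold higher, a log2 limit of -0.43 with a software error of 0.48. After normexp background correction this difference was -0.21. SMARCA4-KD2 differed from NC by 0.20 with an error of 0.37.

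**Figure D2:**
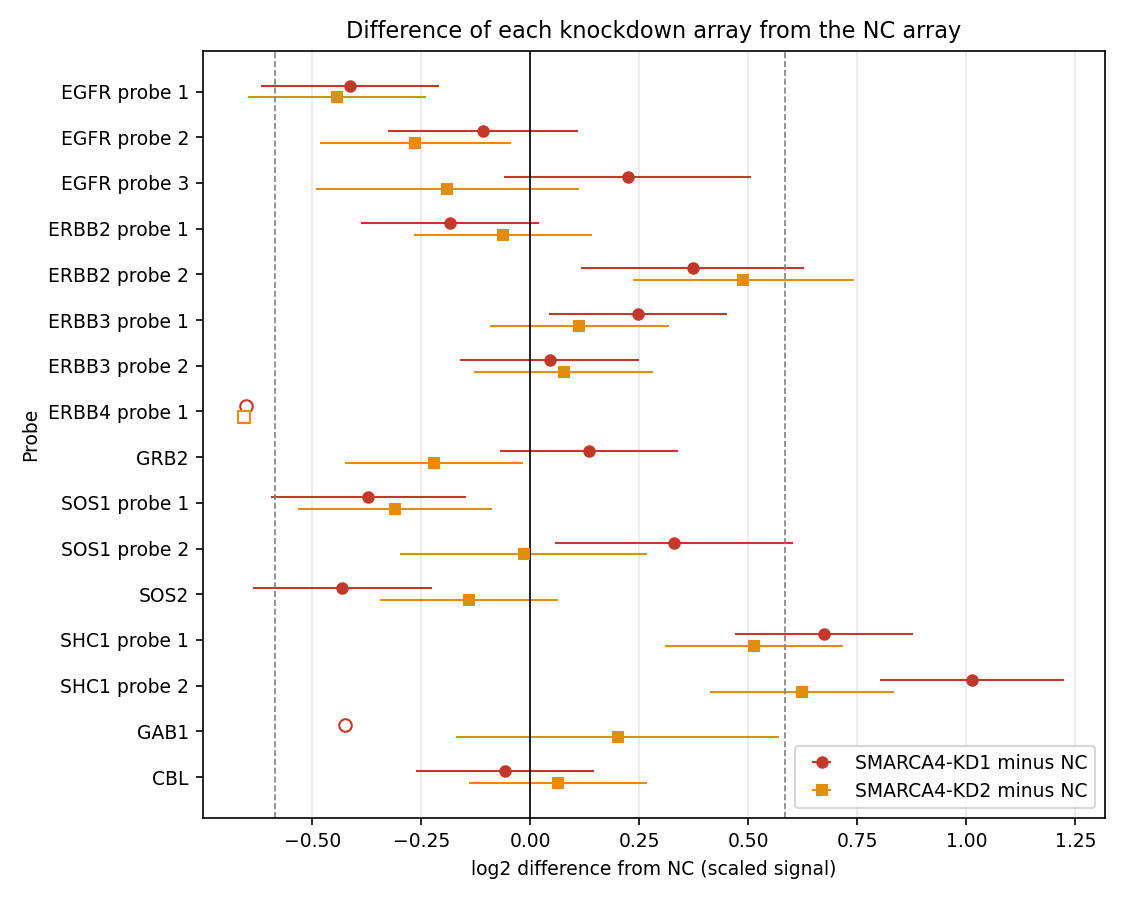
log2 difference of SMARCA4-KD1 and SMARCA4-KD2 from NC for the 16 probes kept, with bars for the software error and dashed lines at 1.5-fold. Open symbols are limits, where the knockdown was not well above background. Of the filled symbols only those of SHC1 lie beyond the lines, probe 1 in SMARCA4-KD1 alone and probe 2 in both knockdowns.

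At 1.5-fold, 2 of the 16 member probes, both of SHC1, were higher in SMARCA4-KD1, where 11.5% of all probes kept were, and 1, that of ERBB4 by its limit, was lower, where 12% were. In SMARCA4-KD2, 1 member probe, SHC1 probe 2, was higher (10.2% of all probes) and 1, ERBB4 again, was lower (9.83% of all probes). Each member share rests on 1 or 2 of 16 probes, and the lower one on a limit. Nothing is therefore read from how these shares compare with those of all probes. limma called 0 of the 16 at an adjusted p of 0.05 and 0 of all 29334 probes (0%). The fit has 1 residual degree of freedom and its smallest adjusted p over all probes was 0.1. At an unadjusted p of 0.05 it listed 4 member probes, EGFR probe 1, both probes of SHC1 and ERBB4 probe 1, where 30.2% of all probes were listed. The methods' t-test on the same values, at their unadjusted p of 0.01, listed ERBB4 probe 1 alone, and 4.5% of all probes. ERBB4 probe 1 was kept through NC only and both its knockdown values are limits, so neither listing rests on a measured spread, and 3 member probes are left in the first and 0 in the second without it.

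The count moved with the probes that entered the fit and with the processing. Restricted to the 25282 probes well above background on all arrays, limma called 26.6% of them, among them 3 of 14 member probes, which were EGFR probe 1 and both probes of SHC1. With normexp background correction it called 14.4% of the 29334 probes and SHC1 probe 1 alone among the members, at an adjusted p of 0.0372. With quantile normalization it called 10.6% and no member, the adjusted p of SHC1 probe 1 being 0.0502. With NC on a slide of its own, each of these fits compares the slides as well as the groups.

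The proteins around the receptors were looked up in 4 lists of other pathway genes, 61 genes in all, of which 54 had a probe well above background on at least 1 array (73 probes). In SMARCA4-KD1, 11 of these probes (15.1%) were at least 1.5-fold lower and 8 (11.0%) higher. In SMARCA4-KD2, 8 (11.0%) were lower and 6 (8.22%) higher. Over the 4 lists together the shares are close to those of all probes given above. limma at an adjusted p of 0.05 called 0 of the 73. At least 1.5-fold from NC in each knockdown, which share the NC array, were 6 genes lower and 5 higher, with 7 and 6 probes. Over all probes 7.98% were lower and 6.58% higher in this sense.

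Of the 11 ligands, 8 were measured, and EGF, EPGN and NRG3 were not well above background on any array. AREG (amphiregulin), a ligand of EGFR, was higher at both probes. Its brighter probe (chr4:75320518-75320577) had a signal of 40475 in NC against 91145 in SMARCA4-KD1 and 92802 in the SMARCA4-KD2 array, log2 differences of 1.09 and 1.16, and the other probe gave 1.05 and 1.02. BTC (betacellulin) had 36.0 in NC and lower signals of 24.8 and 19.0 in the knockdowns, log2 differences of -0.62 and -0.95. These signals lie below 50, where the knockdown arrays differed over all probes with an SD of 0.68. TGFA had log2 differences of -0.75 and -0.65 at 1 probe and of 0.07 and 0.08 at the other. After normexp background correction neither BTC nor TGFA passed 1.5-fold in both knockdowns. Of the 11 ligand probes kept, 2 were at least 1.5-fold lower and 3 higher in SMARCA4-KD1, and 2 lower and 2 higher in SMARCA4-KD2. In SMARCA4-KD1 this is 18.2% lower and 27.3% higher, where 12% and 11.5% of all probes were, and in SMARCA4-KD2 18.2% each, where 9.83% and 10.2% were. With so few probes, 2 of them of AREG, nothing is read from these shares.

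Of the 18 other adaptors, 16 were measured. Of their 20 probes kept, 1 (5%) was at least 1.5-fold lower in both knockdowns and 2 (10%) higher. Over all probes this was 7.98% and 6.58%, and with so few probes nothing is read from the difference. IRS1, the docking protein of the insulin receptor, had a signal of 1630 in NC against 3792 in SMARCA4-KD1 and 3581 in the SMARCA4-KD2 array, 2.19 and 2.15 times the NC level after scaling, and its other probe gave log2 differences of 0.16 and 0.47. GRB10, an adaptor that dampens insulin receptor signaling, had 0.64 and 0.65 at 1 probe and -0.28 and -0.20 at the other. GAB3, a relative of GAB1, was lower by a limit only, since the probe that passed was well above background in NC alone. GRB7, CRK, CRKL, NCK1, GAB2 and the others measured did not pass 1.5-fold both times in 1 direction.

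Of the 12 enzymes recruited to the receptors, 11 were measured, and 2 passed. Of their 16 probes kept, 1 was at least 1.5-fold lower in both knockdowns and 1 higher (6.25% each). Over all probes this was 7.98% and 6.58%. SRC, a tyrosine kinase, had a signal of 445 in NC against 791 in SMARCA4-KD1 and 710 in the SMARCA4-KD2 array, log2 differences of 0.74 and 0.64. VAV2, a guanine nucleotide exchange factor, had 1539 in NC and 803 and 890 in the knockdowns, log2 differences of -1.02 and -0.82, while its dim second probe gave -0.25 and 0.51. Of the 20 negative regulators and trafficking proteins, 19 were measured. Of their 26 probes kept, 3 (11.5%) were lower and 1 (3.85%) higher in this sense. With so few probes, nothing is read from the shares of either list. CBLC, a relative of CBL found in epithelia, had 340 in NC and 574 and 591 in the knockdowns, log2 differences of 0.67 and 0.77. After normexp background correction CBLC did not pass 1.5-fold in both knockdowns. UBASH3B, a phosphatase that binds CBL, had 338 in NC and 176 and 184 in the knockdowns, log2 differences of -1.02 and -0.91. LRIG2 was lower at 2 probes, by log2 differences of -0.89 and -0.73 and of -0.80 and -0.66, and had 0.31 and 0.19 at another bright probe and 0.07 and -0.15 at a dim one.

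The bases before the transcript starts of EGFR and SHC1 are shown because the study probed SMARCA4 at the EGFR promoter by chromatin immunoprecipitation and because SHC1 had the largest measured differences. They come from RefSeq windows (GRCh38.p14), which list 10 starts for 7 of the 10 genes, and ERBB3, GAB1 and CBL are not among them. Each sequence is the 250 bases upstream of the start, 5′ to 3′ on the strand of the gene. In the EGFR sequence (chr7:55018767-55019016, plus strand) the capitals mark the places where the study's primers for the immunoprecipitated DNA match. They bound 187 bases, from 235 to 48 bases before the start. In the SHC1 sequences (chr1:154974377-154974626 and chr1:154970748-154970997, minus strand) the capitals mark the motifs described below.
EGFR: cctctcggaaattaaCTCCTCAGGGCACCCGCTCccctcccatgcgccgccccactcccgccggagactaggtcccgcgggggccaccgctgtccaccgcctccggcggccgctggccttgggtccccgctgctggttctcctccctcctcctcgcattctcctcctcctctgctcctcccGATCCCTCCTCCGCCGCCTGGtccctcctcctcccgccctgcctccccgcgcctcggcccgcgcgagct
SHC1, upstream start: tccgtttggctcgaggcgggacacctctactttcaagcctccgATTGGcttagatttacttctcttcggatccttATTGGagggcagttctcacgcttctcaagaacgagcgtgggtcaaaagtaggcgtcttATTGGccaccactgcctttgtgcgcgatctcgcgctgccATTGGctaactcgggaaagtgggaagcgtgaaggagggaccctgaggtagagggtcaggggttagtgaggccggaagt
SHC1, downstream start: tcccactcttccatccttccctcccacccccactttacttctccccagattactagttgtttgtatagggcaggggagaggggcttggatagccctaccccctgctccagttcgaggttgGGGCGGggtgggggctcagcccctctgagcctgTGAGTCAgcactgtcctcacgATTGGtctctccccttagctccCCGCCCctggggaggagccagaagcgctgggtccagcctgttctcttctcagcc

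Motifs were searched as letters on both strands. GGGCGG stands for the GC box. CCAAT is the box of that name. TGANTCA is the AP-1 motif, and TATAAA the TATA box. No 2 of them overlap in these sequences. In the EGFR sequence, which is 73.6% G and C, GGGCGG occurs 2 times and the others do not occur. RefSeq lists another EGFR start, further downstream, which the study's primers do not match and whose sequence (chr7:55109589-55109838, plus strand) is not printed. That window is 38.8% G and C and holds TGANTCA 2 times and TATAAA 2 times, with no GGGCGG and no CCAAT. Over all 35116 windows of this length 42.6% hold GGGCGG at all and 24.3% hold it 2 times or more. TGANTCA occurs 2 times or more in 0.402% of them and TATAAA 2 times or more in 2.05%. The upstream SHC1 sequence holds CCAAT 4 times, each on the opposite strand, where 32% of windows hold it at all and 0.874% hold it 4 times or more. The downstream SHC1 sequence holds GGGCGG 2 times, CCAAT 1 time and TGANTCA 1 time, and 6.57% of all windows hold TGANTCA. These are matches of letters, and no binding was measured on the arrays.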

How the data were processed

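RNA of 3 samples was hybridised by the authors to 1-colour (Cy3) arrays. The deposited files hold the processed signal of each spot as an intensity, extracted by the authors with Agilent Feature Extraction 10.7.1.1 (submitters' processing notes), background-subtracted and not normalized between arrays, and 0 or 1 flags that were used as given. The deposited series-level table of the same intensity served as an alternative.

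Control and outlier-flagged spots were left out, repeated spots averaged on the log2 scale, and each array's 75th percentile over all probes subtracted. This intensity was 223 on the NC array and 237 and 228 on the knockdown arrays 1 and 2. A value not well above background was raised to the lowest one well above it on its array, and differences against it are limits. The filter kept a probe that passed on 1 array or more. The authors' threshold of 1.5-fold was used. limma 3.58.1 (R 4.3.3, intensity trend, Benjamini-Hochberg over all 29334 probes) compared both knockdowns with NC. The alternative, called the methods' t-test here, set both knockdown arrays together against the NC array with equal variances. The authors' methods name Student's t-test and a p threshold for the arrays, but not this grouping of arrays. The limma fit was also run on simulated scaled values with known changes. These give NC the same spread as the knockdown arrays and hold no slide difference, so they do not test that assumption.

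The members, gene lists and tests were chosen with earlier results of these data known. Named in the text are all member probes, SMARCA4 and PRMT1, AREG, and list genes with a probe detected on all 3 arrays and at least 1.5-fold from NC in the same direction in both knockdowns. GAB3 and the genes named as not measured or not passing were added after their values were seen. Of the 18 member probes, 17 have a RefSeq transcript, and all 17 carry the same symbol in the RefSeq table (GRCh38.p14). Tables and figures were made with matplotlib 3.10.9, pandas 2.3.3 and numpy 2.4.6 in Python 3.11.15. The number of arrays limits the precision.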

Additional observations from a re-analysis of the deposited data

Results flagged for a closer look

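In 5 of the 16 member probes the knockdown arrays lay on opposite sides of NC, and with 1 array each the difference between the knockdowns was not tested. The share of all probes with opposite signs is not set beside this count, so it is not read as a trait of the members. The log2 difference of SMARCA4-KD2 from SMARCA4-KD1 was 0.63 for GAB1, where the SMARCA4-KD1 value is a limit, -0.41 for EGFR probe 3, -0.36 for GRB2, -0.35 for SOS1 probe 2 and 0.12 for CBL. GAB1, EGFR probe 3 and SOS1 probe 2 had signals below 50, where the knockdown arrays differed over all probes with an SD of 0.68. GRB2 and CBL had signals above 1000, where that SD was 0.16.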

How the results depend on the processing

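No paired analysis was possible because each group has 1 array. At 1.5-fold the main counts of member probes were 1 lower and 2 higher in SMARCA4-KD1, and 1 lower and 1 higher in SMARCA4-KD2. With normexp background correction the counts lower were 0 and 0, and 0 were higher in SMARCA4-KD2. The series-level table gave 2 lower in each, EGFR probe 2 being added by listed values that all lie below the lowest signal well above background. Without the floor 2 were lower in SMARCA4-KD1. Among probes well above background on all arrays 0 were lower in each. With the percentile over probes well above background 0 were higher in SMARCA4-KD2. With the brightest probe or the mean per gene 1 was higher in SMARCA4-KD1 and 0 in SMARCA4-KD2. At 2-fold 1 was higher in SMARCA4-KD1 (SHC1 probe 2), 0 in SMARCA4-KD2, and 0 were lower in each. Of the other pathway genes, 6 lower and 5 higher in each knockdown became 3 lower with normexp and, at 2-fold, 0 lower and 2 higher. The genes lower with normexp were LRIG2, UBASH3B and VAV2. limma called 0 member probes, 3 among probes well above background on all arrays and 1 with normexp, and the t-test listed 1 at an unadjusted p of 0.01, ERBB4 probe 1, whose knockdown values are both limits. The cause was not tested. The other 47 recomputed counts and SMARCA4 values, and 152 of 160 recomputed probe differences, moved by less than a count factor of 1.5 or the software error, and no difference past 1.5-fold changed sign. Small values changed sign for ERBB3 probe 2 and CBL in SMARCA4-KD1 and for GAB1 in SMARCA4-KD2. The low signal of ERBB4, GAB1 and EGFR probe 3 limits what can be read from them.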
